A study of Drosophila melanogaster with 4 samples.

Results

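Lysozymes cut the sugar backbone of bacterial peptidoglycan. In Drosophila the chicken-type lysozymes of the Lys family are encoded by a cluster of neighbouring genes, several of which are expressed in the midgut, where they are thought to digest bacteria taken up with food. They are known mainly as digestive enzymes and not as infection-induced antibacterial factors.

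The Lys genes asked for were LysX, LysP, LysS, LysB, LysD and LysE, and probe sets were chosen by gene symbol, current or older, in the table that pairs probe sets with genes. Of these 6 genes, 3 had a probe set, with 1 each for LysX, LysP and LysS, among 11981 genes named by a single-gene probe set in the series. LysB, LysD and LysE are named by no probe set in that table, and 0 probe sets naming several Lys genes were found, so these 3 genes were not analysed here. LysX is known for expression in the gut around metamorphosis, LysP for expression in the adult salivary gland and LysS for expression in the larval gut.

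RNA from whole Canton-S flies was measured on 4 Affymetrix Drosophila Genome 2.0 arrays, with 1 array per group. The groups were old flies (40 days) on food with 100 µM curcumin, old flies (40 days) on food without curcumin, young flies (labelled 1 to 3 days) on food with 100 µM curcumin, and young flies (1 to 3 days) on food without curcumin. Curcumin is a polyphenol of turmeric. It was given in a sucrose and yeast adult diet, and ethanol alone was added to the food without it. The titles give day 1 for the young flies and the design text 3 days. Each RNA pool was labelled as 30 males and 30 females of this wild-type strain, with no transgene or mutation named, so each array holds 1 pool and animals within a pool cannot be told apart. The comparisons address which expression levels differ between these ages and what curcumin feeding does to them at either age.

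Markers of female flies were close to absent on all 4 arrays, against the label of 30 females per pool. The yolk protein gene Yp1 read 27.4 in old flies with curcumin, 9.5 in old flies without it, 11.7 in young flies with curcumin and 13.4 in young flies without it, where signals below 19.3 were treated as background. Of 17 probe sets for eggshell and germline genes, a list added after the values were seen, 16 were below that floor on every array, and the exception, the chorion gene Cp36, reached 26.1. The 3 probe sets of osk, a gene of the oocyte, were also below it on every array, while Yp3 read between 43.6 and 57.9. Male accessory gland genes, in contrast, read between 985 and 6887 for 5 of 5 markers. Yp1 and Yp2 passed the floor only in old flies with curcumin, where Yp2 read 20.9. Female markers were still low on all 4 arrays, so no result could be given without the arrays concerned. Each array had between 58.6% and 60.8% of its 18769 probe sets at or above the floor. The small number of arrays, 1 per group, limits the precision of all values. Nothing says that the pools came from separate cultures.

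LysX signals were higher in old than in young flies on both diets, while LysP signals differed by less than 2-fold between the ages on either diet. LysS signals were under 2-fold apart with curcumin, and without it the difference has only a lower bound. LysX read 469 in old flies with curcumin, 726 in old flies without it, 86.6 in young flies with curcumin and 64.5 in young flies without it. Both old arrays were above both young arrays. LysP read 160.0 in old flies with curcumin, 214 in old flies without it, 162 in young flies with curcumin and 178 in young flies without it. The LysP signals of the ages overlapped, and the array of old flies without curcumin stood above the other three. LysS read 35.8 in old flies with curcumin, 27.6 in old flies without it and 35.8 in young flies with curcumin. In young flies without curcumin its signal, 16.5, was below the floor. LysS thus lay near background on every array. In whole-fly RNA, fewer cells of a type and less RNA per cell cannot be told apart, and this applies to every difference given here.

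**Figure D1:**
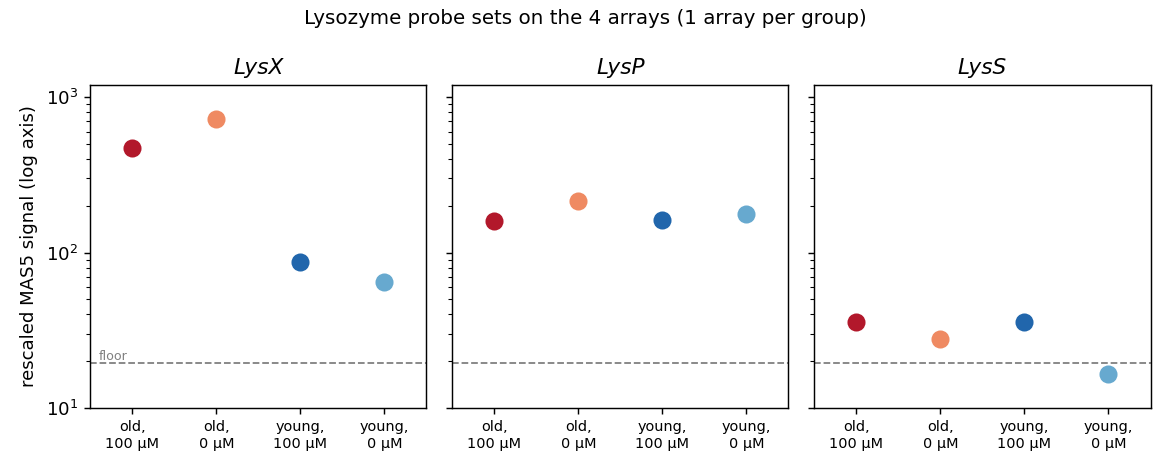
Rescaled MAS5 signal (log axis) of the LysX, LysP and LysS probe sets on each of the 4 arrays, with 1 point per array, and the floor of 19.3 as a dashed line. The LysX points of old flies (469 and 726) lie above those of young flies (86.6 and 64.5), the LysP points lie between 160.0 and 214, and the LysS point of young flies without curcumin is below the floor.

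Without curcumin, LysX was 11.3-fold higher in old than in young flies, a log2 difference of 3.49. It was the 7th most positive of 11774 probe sets compared, whose median difference was -0.0072. Of the 3 measured Lys genes, 1 was at least 2-fold higher and 0 lower, where 4.36% of all probe sets passed 2-fold upward and 8.86% downward. LysP was 1.20-fold higher, a difference that 31.4% of probe sets equalled or exceeded in the same direction. LysS was at least 1.43-fold higher, a lower bound because the signal of young flies was below the floor. With 1 array per group none of these differences has a replicate check, so no p-value is given for them.

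With curcumin, LysX was 5.42-fold higher in old than in young flies, a log2 difference of 2.44, and ranked 16th of 11821 probe sets. The median difference of all probe sets was -0.0083. LysX was again the 1 of 3 measured Lys genes at least 2-fold higher, with 0 lower, against 3.05% of all probe sets past 2-fold upward and 2.68% downward. LysP read 160.0 in old and 162 in young flies, a log2 difference of -0.014 whose sign turned without rescaling (0.11) and with centring on array medians (0.047). LysS read 35.8 in both, with a log2 difference of -0.0016 whose sign turned with quantile normalization, without rescaling and with centring on array medians. The pair of arrays with curcumin shares no array with the pair without it. In both pairs at once, 1.41% of 11391 probe sets were at least 2-fold higher in old flies, LysX among them, and 1.39% at least 2-fold lower.

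**Figure D2:**
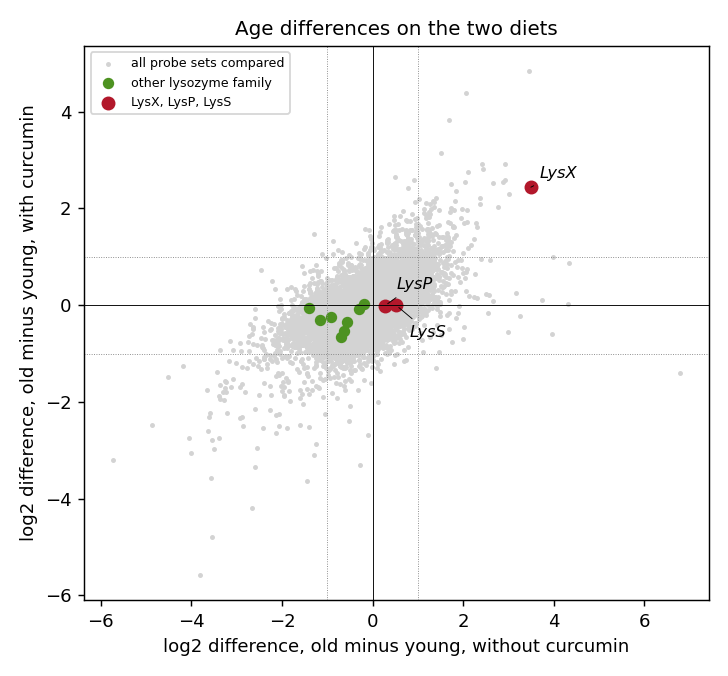
Log2 difference of old minus young flies without curcumin (horizontal axis) and with curcumin (vertical axis) for the probe sets compared on both diets (grey), with the other lysozyme family probe sets in green and LysX, LysP and LysS in red. Dotted lines mark 2-fold, and LysX lies at 3.49 and 2.44, apart from LysP and LysS near the origin.

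The age estimate for LysX over both diets did not pass the test. In limma, with age and curcumin as additive terms fitted to 11515 probe sets, it was 2.97 on the log2 scale (SE 0.31), the 3rd highest estimate, with a Benjamini-Hochberg adjusted p of 0.0943 in limma over 4 arrays. Of all probe sets, 0 were called (0.0%) for age at the threshold of 0.05 in limma, and 2799 had an unadjusted p below 0.05, of which 1375 (11.9% of all tested) were higher in old flies and 1424 (12.4%) lower. LysX, at an unadjusted p of 0.000433 in limma over 4 arrays, was among the higher ones, and LysP and LysS were not. For LysX the adjusted p over the processing alternatives of limma ranged from 0.000216 with centring on array medians to 0.454 with no filter on low signals. With no filter the fit also held probe sets set to the floor on every array, whose values do not vary. The prior SD of limma was then 0.0026, against 0.20 with the filter. Centring moved the median age estimate of all probe sets to 0.12, and LysX then stood at 3.10. A floor set at the 60th percentile gave a LysX estimate of 2.93 and a limma adjusted p of 0.0419. The age estimates for LysP (0.13, SE 0.19) and LysS (0.26, SE 0.22) had limma adjusted p-values of 0.703 and 0.495. Each probe set has 1 residual degree of freedom in this fit, so noise and any interaction cannot be told apart.

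In young flies, curcumin food went with small differences in LysX and LysP and a larger one in LysS, at a signal near background. LysX read 86.6 with curcumin and 64.5 without it, 1.34-fold higher, which 6.88% of 11857 probe sets equalled or exceeded. LysP read 162 with curcumin and 178 without it, 1.10-fold lower. LysS read 35.8 with curcumin and was below the floor without it, at least 1.86-fold higher, and 0.734% of probe sets differed upward by as much or more. With no floor or with one at the 25th percentile its log2 difference was 1.12, past 2-fold. Of the 3 Lys genes, 0 were at least 2-fold apart, where 0.455% of all probe sets passed 2-fold upward and 0.439% downward.

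In old flies, LysX and LysP signals were lower with curcumin than without it, both by less than 2-fold. LysX read 469 with curcumin and 726 without it, 1.55-fold lower, which 5.98% of 11593 probe sets equalled or exceeded in that direction. LysP read 160.0 with curcumin and 214 without it, 1.34-fold lower. LysS read 35.8 with curcumin and 27.6 without it, 1.30-fold higher. Of the 3 Lys genes, 0 were at least 2-fold apart, against 4.63% of all probe sets past 2-fold upward and 1.35% downward. This comparison shares the array of old flies without curcumin with the age comparison without curcumin. In the additive limma model the curcumin estimates were -0.10 for LysX (SE 0.31), -0.28 for LysP (SE 0.19) and 0.63 for LysS (SE 0.22). Their limma adjusted p-values were 0.955, 0.820 and 0.820. For curcumin, limma called 0 of 11515 probe sets (0.0%), and 448 had an unadjusted p below 0.05.

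The LysX signals ran, from high to low, old without curcumin, old with curcumin, young with curcumin and young without curcumin. Within each age the neighbours in this order differed by under 2-fold, and with 1 array each the spread between pools is unknown. The age difference of LysX was 1.05 log2 smaller with curcumin than without it, and 1.91% of 11515 probe sets had a change of that size or more in that direction. It could not be tested, since each group has 1 array. By their ages, adults could have eaten curcumin food for no more than 3 days in the young group and 40 days in the old group, so when the diets are set against each other at each age, age and length of feeding cannot be told apart.

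Lysozyme genes outside the Lys cluster did not share the LysX pattern in their values. Of 13 further family names, 11 had a probe set, and CG7798, CG8492, CG11159 and CG30062 were below the floor on all arrays. Without curcumin, all 7 measured genes were lower in old than in young flies and 2 of them at least 2-fold, with a median log2 difference of -0.64 beside -0.0072 for all probe sets. Of all probe sets, 8.86% were at least 2-fold lower in that pair. With centring on array medians 6 of the 7 were lower and 1 of them at least 2-fold, with CG6435 at -0.96. CG16756, of the chicken-type family, read 170.1 in old flies without curcumin against 452 in young ones, 2.66-fold lower. CG6435, of the invertebrate-type family, read 86.1 in old flies against 193 in young ones, 2.25-fold lower. The remaining 5 had log2 differences from -0.69 to -0.19, led by CG14823, also of the invertebrate type, whose other probe set above the floor was at -0.92. With curcumin, 0 of the 7 were at least 2-fold apart between the ages, and the median was -0.31. Of all probe sets, 3.05% passed 2-fold upward and 2.68% downward in that pair.

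Within diet comparisons the same family genes were mostly higher in old flies with curcumin than without it. LysX and LysP were lower there, while LysS, near background, was higher. In old flies, 6 of 7 were above zero under each of the 4 scalings, 1 at least 2-fold, and the median was 0.28 beside -0.024 for all probe sets. The share of all probe sets at least 2-fold higher there was 4.63%. CG16756 read 406 with curcumin and 170.1 without it, 2.39-fold higher. CG6435 read 140.0 with curcumin and 86.1 without it, a log2 difference of 0.70. CG6429 was the exception, at -0.10. In young flies 3 of the 7 were above zero, or 1 of 7 without rescaling, with a median of -0.037, and 0 were at least 2-fold apart. Across all probe sets, 0.455% passed 2-fold upward and 0.439% downward in young flies. The old array without curcumin enters both the age values above and these.

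**Figure D3:**
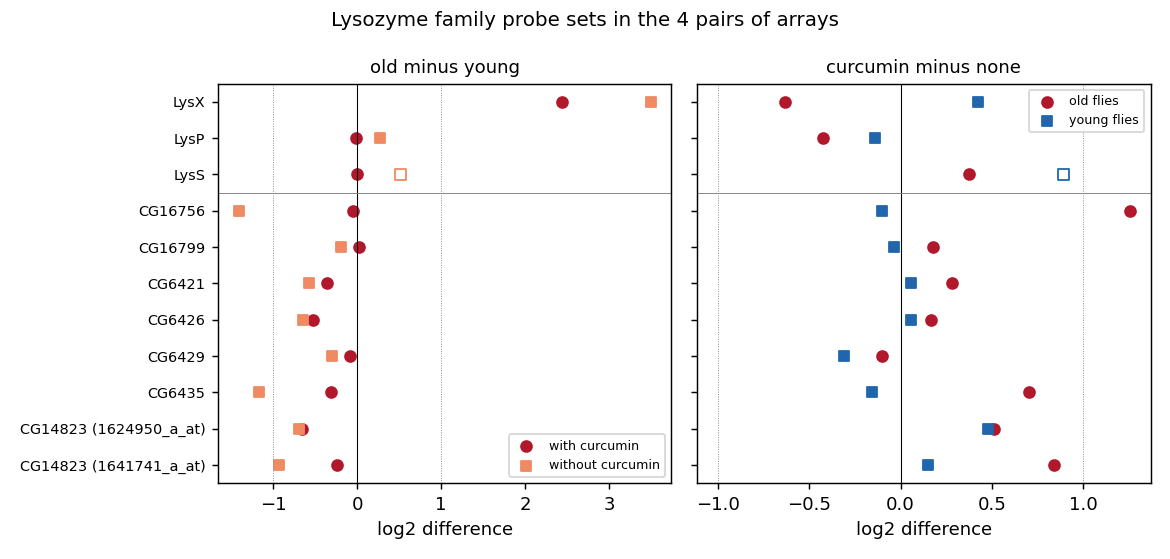
Log2 differences of the Lys genes (above the line) and of other lysozyme family probe sets measured above the floor, for old minus young flies (left) and curcumin minus none (right). Open symbols are bounds with 1 side below the floor, dotted lines mark 2-fold, and LysX at 2.44 and 3.49 is the 1 point past 2-fold upward with age.

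Genes next to the Lys genes did not carry the LysX difference. In the gene order of assembly Release 6 the cluster lies on chromosome arm 3L, with LysX at one end, separated by Aplip1, mwh, meep and CG9119 from LysB, the pseudogene LysC, LysD, LysE, LysP and LysS. LysB, LysD, LysE, LysP and LysS lie inside the span of mwh, a gene of wing hair polarity, and LysX lies outside it. Aplip1, an adaptor for axonal transport beside LysX, read 50.5 in old and 71.2 in young flies with curcumin, and 47.8 in old and 43.4 in young flies without it. CG13912, on the other side beyond Trhn, was 1.57-fold higher in old flies with curcumin and 1.41-fold higher without it. Among 10 neighbouring genes up to 3 positions beyond the cluster, 8 had a probe set. Of these, 6 could be compared between the ages without curcumin, and 0 passed 2-fold upward and 2 downward. Of all probe sets, 4.36% passed it upward and 8.86% downward. With curcumin 7 could be compared, and 0 were at least 2-fold apart, against 3.05% of all probe sets upward and 2.68% downward. The 2 lower genes were CG9119, at 418 in old flies against 1280 in young ones, and CG33966, which was below the floor in old flies and at least 3.34-fold lower. Both mwh probe sets were below the floor on all arrays. The neighbours were chosen by position after the LysX values were known.

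**Figure D4:**
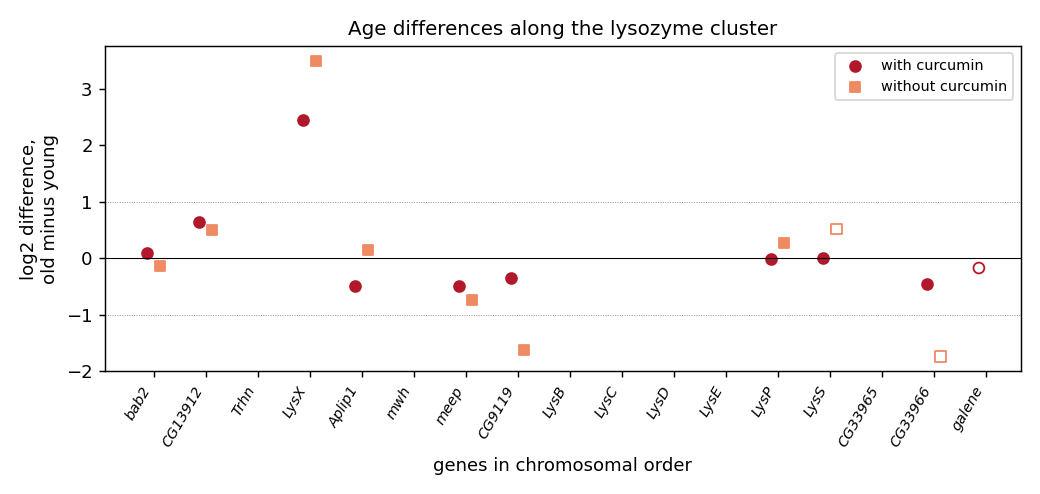
Log2 difference of old minus young flies with and without curcumin for genes in chromosomal order from bab2 to galene across the Lys cluster, where genes without a point had no probe set or were below the floor on both arrays. Open symbols are bounds, and LysX alone exceeds 2-fold upward.

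The probe sets with profiles most like LysX over the 4 arrays were those of Mal-B1, CG7381 and nAChRbeta3. Likeness was the Euclidean distance between log2 profiles centred on their own mean, among 9209 single-gene probe sets not below the floor on any of the 4 arrays. Mal-B1, which encodes a maltase, was at a distance of 0.63 and read 348 in old flies with curcumin, 409 in old flies without it, 85.0 in young flies with curcumin and 59.7 in young flies without it. CG7381 was at 0.68 and the nicotinic receptor subunit gene nAChRbeta3 at 0.71. In all, 5 probe sets lay within a distance of 1 of LysX. Signals of Mal-B1 and CG7381, like those of LysX, were higher with curcumin than without it in young flies, and those of nAChRbeta3 were lower. In old flies signals of Mal-B1 and nAChRbeta3, like those of LysX, were lower with curcumin, and CG7381 was higher, at 455 against 408. These genes were picked by their values on the same 4 arrays, so shared directions follow largely from that choice. LysP, whose signals spanned 0.42 log2, had 89 of the 9209 probe sets within a distance of 0.1, with Gug, CG1103 and Kdm5 nearest. Within a distance of 1 lay 7758 of the 9209. That distance exceeds the span of LysP, so flat or opposite profiles fall within it and the count does not show likeness. LysS was not ranked because 1 of its values was below the floor.

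**Figure D5:**
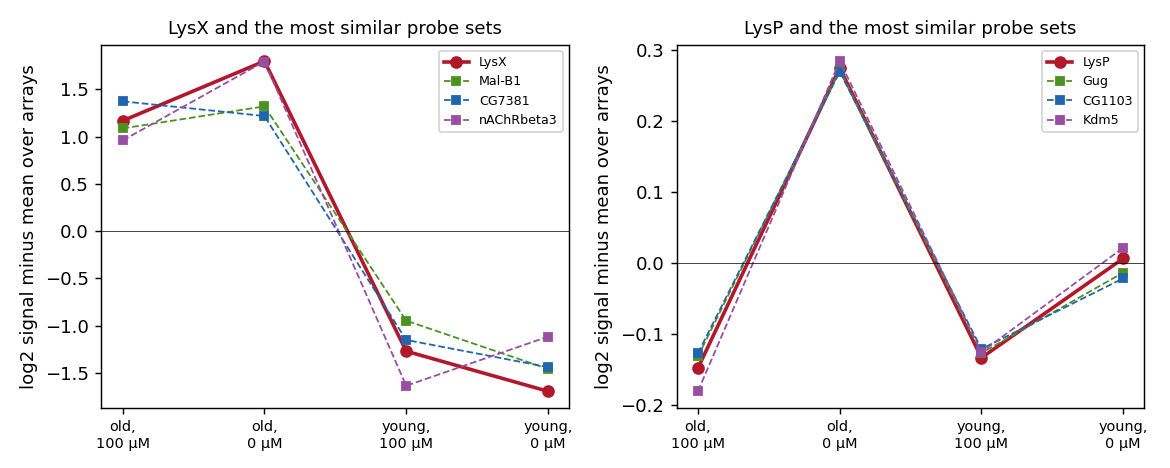
Log2 signal minus its mean over the 4 arrays for LysX (left) and LysP (right), with the 3 probe sets nearest to each as dashed lines. LysX spans 3.49 and LysP 0.42 on this scale, so the vertical axes differ.

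Other genes that act on bacterial cell walls or food varied in their age differences, and PGRP-LB and Mal-B1 were, like LysX, at least 2-fold higher in old flies on both diets. Mal-B1 was already named as the probe set nearest to LysX on these same arrays, so its likeness is not a separate result. Among the amidases that degrade peptidoglycan, PGRP-LB read 239 in old and 108 in young flies with curcumin, and 507 in old and 166 in young flies without it. PGRP-SB1 was 4.18-fold higher in old flies without curcumin and 1.23-fold higher with it. The probe set that names PGRP-SC1a and PGRP-SC1b together was below the floor in old flies and at least 3.03-fold lower without curcumin and at least 5.58-fold lower with it. In all, of 4 measured amidase probe sets, 2 passed 2-fold upward with age and 1 downward without curcumin, and 1 upward and 1 downward with it. On the list of infection-induced antimicrobial peptide genes, edin included, 7 of 7 measured were at least 2-fold higher in old flies without curcumin. With curcumin 0 were higher and 1 lower. The lower gene was edin, by at least 2.64-fold, at 51.0 in young flies and 15.2, below the floor, in old flies. Digestive proteases were at least 2-fold lower in old flies for 18 of 23 genes without curcumin and 13 of 23 with it, and 0 were higher. Of 13 measured sugar and starch digestion probe sets, 7 were at least 2-fold lower and 1, Mal-B1, higher without curcumin, and 2 lower and 1 higher with it. The shares of all probe sets past 2-fold with age were 4.36% upward and 8.86% downward without curcumin, and 3.05% and 2.68% with it. On both diets at once, 1.41% were at least 2-fold higher in old flies.

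Markers of blood cells were, like LysX, higher in old flies, and most midgut markers were lower. Hemocyte markers were above zero in old minus young flies for 4 of 4 measured on both diets, with 1 at least 2-fold higher with curcumin (3 without rescaling) and 3 without it (2 with quantile normalization and 4 with centring on array medians). The summed signal of the whole list of 5, He included, was 845 in old flies with curcumin, 1096 in old flies without it, 435 in young flies with curcumin and 444 in young flies without it. NimC1, a phagocytosis receptor, read 233 in old and 122 in young flies with curcumin, and 381 in old and 98.4 in young flies without it. The marker He was below the floor on all arrays. Midgut markers summed to 27733 in old flies with curcumin and 15291 without it. In young flies they summed to 34022 with curcumin and 30885 without it. With age, 0 of 6 passed 2-fold upward, and 2 passed it downward with curcumin and 3 without it. With curcumin 5 of 6 were below zero, or 4 of 6 with quantile normalization or without rescaling. The markers alphaTry, betaTry, Jon25Bi, Amy-p and Mal-A1 were also among the digestion genes counted above. Of the acid-secreting midgut markers, 2 were measured, which went opposite ways with age, and CAH6 was below the floor. CAH5 was 2.28-fold higher in old flies with curcumin and 1.76-fold higher without it. Vha100-4 was 1.32-fold lower in old flies with curcumin and 2.01-fold lower without it. With CAH6 included the sums were 276, 132, 243 and 178 for the arrays in the same order as the midgut sums. Fat body markers summed to 10972, 11730, 11629 and 12696 in that order, with Fbp1 below the floor, and male accessory gland markers to 20488, 11118, 21584 and 22855. Of the 4 fat body markers measured, 2 were above zero and 2 below with age on each diet. Lsp2 was 2.24-fold lower in old flies with curcumin and 5.66-fold lower without it. Apoltp was 1.34-fold higher in old flies with curcumin and 2.00-fold higher without it. Of all probe sets, 4.36% passed 2-fold upward with age and 8.86% downward without curcumin, and 3.05% and 2.68% with it. The part of the cell markers in the LysX difference was not tested.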

How the data were processed

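The authors deposited 1 value per probe set and array. MAS5, which summarises the probes of a probe set, is named in the submitters' processing notes without a version. Running from -4.67 to 13.4, the deposited values were read as log2 signals. RNA was extracted with Trizol and labelled with biotin, per the labels' protocols. After back-transformation, signals were brought to a common 2% trimmed mean (factors from 0.975 to 1.06), floored at the pooled 40th percentile (19.3) and log2-transformed. Folds against a side below the floor are lower bounds. Of 18769 probe sets, 13646 named 1 gene, 402 several and 4721 none in the platform table, and names were updated to assembly Release 6 by gene number.

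Groups came from the labels. Pairs were compared with no p-value, over probe sets that reached the floor on either array. Additive age and curcumin effects came from limma 3.58.1 under R 4.3.3 (lmFit, eBayes), with Benjamini-Hochberg adjustment at 0.05 over probe sets that reached the floor on 2 or more arrays. For a gene with several probe sets the one with the highest mean stood in list counts. The fit was run on simulated data with known age changes, independent noise and no interaction of age and diet. Such data cannot show how an interaction would affect the fit.

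The Lys genes, the lists and the tests were chosen with earlier results of these data known. Named were all Lys genes, the 3 probe sets nearest to each Lys probe set measured on all 4 arrays, and up to 4 genes of each other list with the largest difference. Further genes were named after their values were seen. The marker nos was not matched by that symbol, which another gene shares, and was counted as nanos in the added list. The alternatives tried were centring on array medians, no rescaling, quantile normalization, floors at the 25th or 60th percentile, no floor, log2(signal + 16), a 3-fold threshold, no filter, 1 probe set per gene, dropping the other model term, robust eBayes with an intensity trend, and omitting each array in turn. Python 3.11.15 with numpy 2.4.6 and pandas 2.3.3 was used.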

Additional observations from a re-analysis of the deposited data

Results flagged for a closer look

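The signs of some differences were opposite in the groups compared, with 1 array on each side. None of these contrasts between groups was tested. For curcumin minus none, LysX was at -0.63 in old flies and 0.42 in young flies, CG16756 at 1.25 in old and -0.10 in young flies, CG6435 at 0.70 in old and -0.16 in young flies, and CG16799 at 0.18 in old and -0.037 in young flies, all as log2 differences. For old minus young, LysP was at -0.014 with curcumin and 0.27 without it, LysS at -0.0016 with curcumin and at least 0.52 without it, and CG16799, a chicken-type lysozyme gene, at 0.025 with curcumin and -0.19 without it. With curcumin the signs of the LysP and LysS age differences turned under at least 1 other scaling, and so did that of the CG16799 age difference without curcumin (0.017 with centring on array medians).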

How the results depend on the processing

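LysX kept its direction and stayed past 2-fold with age under every processing alternative, with log2 differences from 3.20 to 3.70 without curcumin and from 2.24 to 2.56 with it, and its curcumin differences stayed under 2-fold. The count of probe sets that limma called for age was 0 and became 1096 with centring on array medians, 50 with a 60th-percentile floor and 26 with log2(signal + 16). The cause was not tested. The prior of the limma fit had 3.35 degrees of freedom and 10.4 with centring. Centring moved the median of all probe sets to 0.19 for age without curcumin, where LysX was at 3.70. The count of Lys genes at least 2-fold apart in young flies with curcumin was 0 and became 1 with no floor and also 1 with a 25th-percentile floor, through LysS, whose signal without curcumin lay below the main floor. With the 60th-percentile floor LysS was below it on all arrays and gave no value.

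Without each array in turn the additive fit has as many terms as arrays, so its estimates have no test. Each estimate then equals the difference within 1 pair of arrays, so the estimates are no check apart from the pairs. For age they ranged from 2.44 to 3.49 for LysX, -0.014 to 0.27 for LysP and -0.0016 to 0.52 for LysS, and the low ends came without either array of flies off curcumin. For curcumin they ranged from -0.63 to 0.42 for LysX, the positive value without either old array, from -0.42 to -0.14 for LysP and from 0.37 to 0.89 for LysS. No paired analysis was possible because each group has 1 array. Signals near background limit LysS.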
